A study of Mus musculus with 3 samples.

Results

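A set of 50 genes that act in G2 and mitosis was followed through single-cell RNA sequencing (scRNA-seq) of mouse intestinal epithelium with and without Arid3a. Members were matched by gene symbol, and all 50 were found among the 51912 genes of the deposited matrices. They were divided by role into 10 genes of cyclins, Cdk1 and their partners, 11 of the kinetochore and centromere, 14 of the spindle, 6 of cytokinesis and 9 of chromatin and the nuclear envelope. Unique molecular identifiers (UMIs), each standing for a captured transcript, were counted over cells with at least 1000 genes detected and at most 15% of UMIs from mitochondrial genes.

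The Arid3a cKO libraries (replicates 1 and 2) came from mice of genotype VillinCreERT2 with Arid3a fl/fl, in which the Villin promoter drives a tamoxifen-inducible Cre in intestinal epithelial cells. The WT library (1 replicate) came from a VillinCreERT2 control, so that both groups carried the recombinase. Both groups were given tamoxifen at 8 to 10 weeks of age and were examined 1 month after the first dose. Cells were dissociated from crypts and sorted as live, Epcam-positive, CD45-negative and CD31-negative, and the libraries were prepared with 10x Genomics 3′ chemistry. The question asked of these genes is whether cells that are preparing for or passing through division differ when Arid3a is deleted.

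With 1 WT library, the spread between replicates was known from the cKO libraries alone. After the limits on genes and mitochondrial UMIs, 2134, 1550 and 1910 cells were kept in Arid3a cKO 1, Arid3a cKO 2 and WT, with 58169310 to 70922480 UMIs per library. Values for the 3 libraries are given in that order throughout. Kept cells shared at most 2 barcodes between libraries. Arid3a had 42, 52 and 161 UMIs, which is 0.592, 0.894 and 2.57 UMIs per 1000000 UMIs of the cells summed (CPM). Both cKO libraries were therefore below WT, but Arid3a was too sparse in crypt cells for a check there, with 7, 3 and 18 UMIs in stem and transit-amplifying cells together. All intervals on levels and shares are 95% intervals that cover counting error only (exact Poisson for levels, exact Clopper-Pearson for shares).

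Cells enter mitosis when Cdk1, bound to a cyclin A or cyclin B, becomes active, and they leave it when the anaphase-promoting complex destroys the cyclins. The transcripts of this programme accumulate late in the cycle, after DNA replication, and are repressed in cells that have stopped dividing. Many of their promoters carry CCAAT boxes, which bind the trimeric factor NF-Y, and the cell cycle genes homology region (CHR; TTTGAA or TTCGAA), which recruits the DREAM complex in resting cells and the MYB-MuvB complex, joined by Foxm1, in dividing cells. In the intestine, division is confined to the crypt, where intestinal stem cells (ISC) and their transit-amplifying (TA) daughters cycle before they differentiate.

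Promoter sequence from RefSeq (GRCm38.p6) was matched to 43 of the 50 members, with 48 promoters in all because 5 members had more than 1. Each promoter was read over the 250 bases before the annotated start, on both strands. CCAAT was found in 39 of 48 promoters (81.2%), against 33.9% of all 32841 promoters. TTTGAA or TTCGAA was found in 22 of 48 (45.8%), against 17.1%. At least 2 copies of CCAAT stood in 58.3% of member promoters and 10.1% of all promoters, and both motifs stood in 41.7% and 6.02%. The members' promoters also more often held the boxes at a given distance. CCAAT starts lay 25 to 40 bases apart in 41.7%, against 3.04% of all promoters. A CHR began 15 to 45 bases after a CCAAT in 29.2%, against 1.08%. Members also had more boxes, so the counts were set against the promoters that held them. Among promoters with at least 2 copies of CCAAT, 20 of 28 member promoters had that spacing, against 998 of 3315 of all. Among promoters with both motifs, 14 of 20 had the CHR at its distance, against 355 of 1977. These distance windows were chosen after the sequences had been seen. A match of this kind is a description of letters and not of bound sites.

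The promoters below show these boxes in the member with the most UMIs in each role among those holding both motifs, and in Cenpf, since no kinetochore member held both. That of Cdk1 was added for the distance between its boxes. Capitals mark CCAAT (or its reverse ATTGG) and TTTGAA (or its reverse TTCAAA), and each sequence ends at the base before the annotated start.
Ube2c (chr2:164769679-164769928, plus strand): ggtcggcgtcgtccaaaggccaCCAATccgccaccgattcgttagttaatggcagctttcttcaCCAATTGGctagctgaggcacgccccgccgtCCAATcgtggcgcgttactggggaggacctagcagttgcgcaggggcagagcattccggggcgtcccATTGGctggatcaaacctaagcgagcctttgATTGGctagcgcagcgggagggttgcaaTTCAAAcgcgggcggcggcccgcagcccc
Cenpf (chr1:189688087-189688336, minus strand): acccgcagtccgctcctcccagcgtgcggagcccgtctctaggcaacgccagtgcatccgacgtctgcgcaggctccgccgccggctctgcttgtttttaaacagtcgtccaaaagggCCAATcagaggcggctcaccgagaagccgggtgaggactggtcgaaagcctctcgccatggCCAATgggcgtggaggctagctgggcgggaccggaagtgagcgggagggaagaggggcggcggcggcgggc
Tubb4b (chr2:25224703-25224952, minus strand): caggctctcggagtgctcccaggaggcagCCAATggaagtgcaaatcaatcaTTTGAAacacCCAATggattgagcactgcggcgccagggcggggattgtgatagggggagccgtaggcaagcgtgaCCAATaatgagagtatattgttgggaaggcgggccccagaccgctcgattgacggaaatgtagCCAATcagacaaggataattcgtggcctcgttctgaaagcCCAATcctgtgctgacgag
Prc1 (chr7:80294226-80294475, plus strand): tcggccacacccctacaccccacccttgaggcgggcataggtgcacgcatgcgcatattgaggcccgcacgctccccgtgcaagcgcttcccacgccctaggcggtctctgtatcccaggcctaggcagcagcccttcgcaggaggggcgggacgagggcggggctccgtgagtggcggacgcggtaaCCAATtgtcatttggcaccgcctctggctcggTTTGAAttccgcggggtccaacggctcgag
Hmgb2 (chr8:57511593-57511842, plus strand): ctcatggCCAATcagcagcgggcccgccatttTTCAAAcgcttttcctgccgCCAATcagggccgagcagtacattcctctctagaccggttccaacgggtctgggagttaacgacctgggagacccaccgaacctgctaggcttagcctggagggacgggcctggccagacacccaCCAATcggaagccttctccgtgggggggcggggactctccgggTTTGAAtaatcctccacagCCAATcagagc
Cdk1 (chr10:69352913-69353162, minus strand): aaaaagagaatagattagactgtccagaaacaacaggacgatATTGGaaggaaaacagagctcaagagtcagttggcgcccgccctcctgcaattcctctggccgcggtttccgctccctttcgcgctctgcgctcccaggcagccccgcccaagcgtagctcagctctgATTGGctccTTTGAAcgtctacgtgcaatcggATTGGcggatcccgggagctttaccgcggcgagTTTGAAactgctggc
In Cdk1, the kinase at the centre of the programme, a CCAAT in reverse lies just upstream of each CHR. The same order, CCAAT and then CHR, ends the Prc1 promoter, whereas in Hmgb2 and Tubb4b CCAAT boxes stand on both sides. Ube2c, the ubiquitin-conjugating enzyme that works with the anaphase-promoting complex, holds 6 CCAAT matches over both strands, including a pair that overlap in CCAATTGG.

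To ask where in the epithelium the members were expressed, cells were clustered without the 50 genes, and clusters were named from markers that include none of them. ISC-like cells numbered 363, 236 and 311, and TA-like cells 236, 206 and 247. The TA-like cluster was led by histone genes and mitotic genes outside the list (Plk1, Pbk, Esco2, Racgap1) and had 3 of the DNA replication genes used as TA markers among its top 50 genes, with none among its top 10. The 43 S phase genes summed to less in TA-like cells (2387, 2492 and 2540 CPM) than in ISC-like cells (2456, 2670 and 2794 CPM). The division into ISC- and TA-like cells is thus in part a division by phase of the cell cycle, and both classes were also analysed together. A cluster of 953 cells, led by Rbp7, Ccl20 and Krt19, was left unnamed.

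The members were concentrated in TA-like cells of every library. Their summed level there was 10840, 10661 and 10209 CPM. In ISC-like cells it was 2042, 2196 and 2369 CPM, and in enterocyte-like cells 700, 648 and 618 CPM. TA-like cells made up 11.1%, 13.3% and 12.9% of the kept cells and held 60.7%, 64.1% and 61.7% of all member UMIs. Goblet-like cells held 2786, 2876 and 2597 CPM. All 50 members had their highest mean level in TA-like cells. The ratio of mean CPM + 5 in TA-like cells to that in ISC-like cells had a median of 4.84 over the members. It ran from 1.75 (Tmpo, a lamina-associated protein) to 15.7 (Nusap1, which bundles spindle microtubules). Adding 5 understates the ratio for genes with few UMIs. Nusap1, for instance, averaged 165 CPM in TA-like and 5.82 CPM in ISC-like cells. The ratio of CPM + 5 was at least 2 in each library for 45 members and at least 5 for 19.

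**Figure D1:**
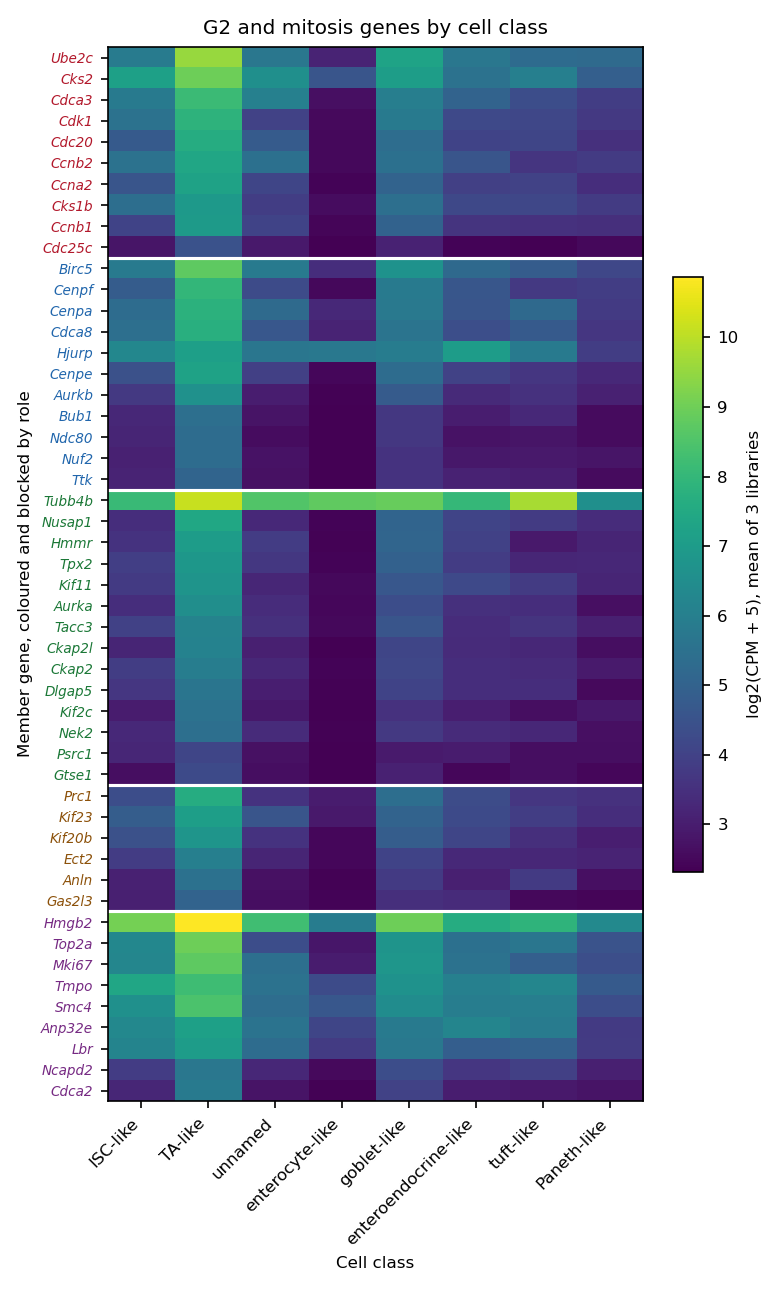
Level of each of the 50 G2 and mitosis genes (rows, grouped by role) in each cell class (columns). The colour scale is log2 of CPM + 5, with CPM as the mean of 3 libraries. The TA-like column is the brightest for all 50 genes, and Tubb4b and Hjurp keep colour in the enterocyte-like column.

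Detection per cell, with all cells reduced by random draws to 21000 UMIs, gave the same order. In every library, 14 members were seen in at least 90% of TA-like cells and 41 in at least 50%, while 11 were seen in at least 50% of ISC-like cells. In mature enterocyte-like cells Top2a, the topoisomerase that untangles sister chromatids, was seen in 3.76%, 3.33% and 4.17% of cells. Mki67, which coats mitotic chromosomes and is the standard marker of cycling cells, was seen in 5.71%, 4.31% and 5.67% of them. In TA-like cells Top2a was seen in 95.5%, 93.8% and 97.0%, and Mki67 in 98.7%, 97.9% and 98.7%. Shares this low in the enterocyte-like cells were taken as background and not as expression.

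Most members thus fell to a small part of their TA-like level in enterocyte-like cells. That part was under 1% in every library for 31 members and under 10% for 47. Those not under 10% in every library were Tubb4b (36.4 to 39.5%), Hjurp (29.7 to 42.1%) and Anp32e (8.07 to 10.1%). A small part of a high level need not be background. Cks2 was seen in 25.5 to 32.6% and Birc5 in 7.25 to 11.8% of mature enterocyte-like cells, above the shares for Top2a and Mki67. Tubb4b encodes a beta-tubulin found in many cell types, and its level in tuft-like cells was 873, 793 and 917 CPM, close to that in TA-like cells (1203, 1226 and 1012 CPM). Hjurp is the chaperone that deposits the centromeric histone Cenpa. It was seen in 54.0%, 53.3% and 70.2% of mature enterocyte-like cells thinned to 21000 UMIs, far above the shares for Top2a and Mki67 in the same cells, and reached 120, 136 and 124 CPM in enteroendocrine-like cells. Cenpa itself averaged 223 CPM in TA-like and 4.79 CPM in enterocyte-like cells. No annotated gene overlaps Hjurp in GENCODE M21.

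To ask whether the programme changed with Arid3a, UMIs were summed per library and compared with edgeR's quasi-likelihood test, with p adjusted over all genes. No member passed the test in ISC- and TA-like cells together, in TA-like cells alone or in all kept cells. Of all genes tested, 0.436%, 1.06% and 0.696% passed in those cells, respectively. At an unadjusted p under 0.05 there was 1 member in ISC- and TA-like cells (Gtse1), 1 in TA-like cells (Cdca3) and 4 in all kept cells (Hjurp, Gtse1, Mki67 and Tubb4b). These were 2%, 2% and 8% of the members, beside 6.22%, 6.54% and 10.996% of all genes tested. DESeq2 also called 0 members in each. The members' summed level in ISC- and TA-like cells was 6337, 6747 and 6447 CPM, so that WT lay between the cKO libraries. The test had 1 residual degree of freedom before the spread was moderated across genes, and WT was assumed to vary like the cKO libraries. The design text calls the replicates biological, while the labels do not name the mouse or pool of mice behind each library.

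The intervals of the fitted differences show what sizes are allowed under the assumptions of the test. These are that WT varied like the cKO libraries and that the spread moderated across genes held for each member. The spread of WT itself was not measured. Taken over ISC- and TA-like cells, the 95% intervals of all 50 members lay within 1 on the log2 scale, a 2-fold change, in both directions, and those of 40 members lay within 0.5. The outermost bounds were -0.88 for Gtse1 and 0.63 for Cdc25c. Standard errors ran from 0.14 to 0.20. In TA-like cells all 50 intervals again lay within 1, and 37 lay within 0.5.

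The direction of the differences depended on the cells summed. Each value is the log2 of the quotient of CPM + 5 between a cKO library and WT, a scale that understates differences of genes with few UMIs. For ISC- and TA-like cells the median over the members was -0.030 for Arid3a cKO 1 and 0.016 for Arid3a cKO 2, and -0.014 for their mean, beside -0.0034 over all genes tested. Both cKO libraries were above WT for 17 of 50 members (34%, against 32.8% of all genes tested) and below WT for 19 (38%, against 34.5%). In TA-like cells the median was 0.041 beside 0.0034 over all genes, with 23 members above WT in both cKO libraries (46%, against 34.4%) and 14 below (28%, against 32.1%). In all kept cells, where the share of dividing cells also enters, the median was -0.046 beside -0.014, with 8 members above WT in both (16%, against 30%) and 26 below (52%, against 43.9%). ISC-like cells alone were the most one-sided of these cells, with a median of -0.17 beside -0.0067 over all genes, 4 members above WT in both cKO libraries (8%, against 32.8%) and 34 below (68%, against 35.7%). These counts carry no test, and the difference between ISC- and TA-like cells was not tested.

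**Figure D2:**
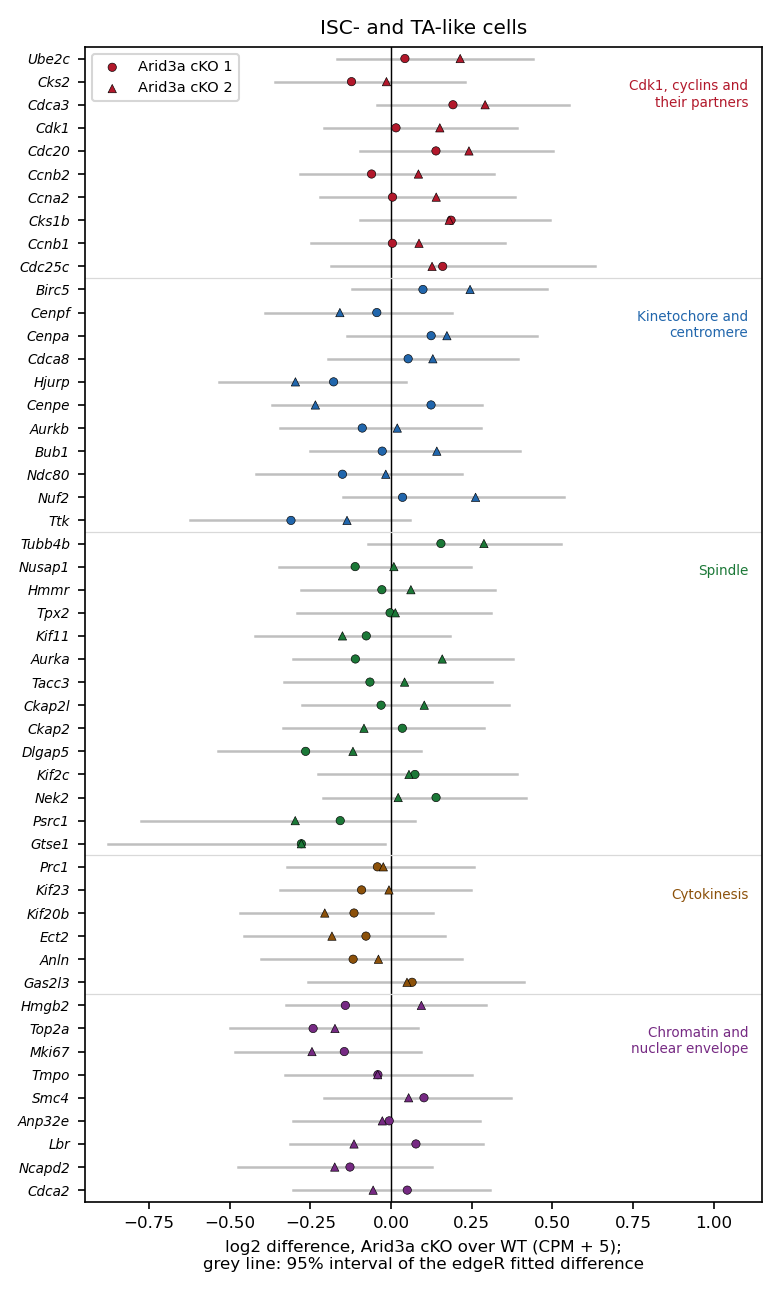
log2 ratio, cKO over WT, of CPM + 5 in ISC- and TA-like cells, for the 50 genes by role (circles Arid3a cKO 1, triangles Arid3a cKO 2); grey lines are 95% intervals of edgeR's fitted difference. All intervals lie within 1 and only that of Gtse1 leaves out 0.

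Among the 10 regulators of mitotic entry and exit, 8 (80%) were above WT in both cKO libraries in ISC- and TA-like cells and 1 (10%) below. Of all genes tested, 32.8% were above and 34.5% below. The median of the 10 was 0.11, and none passed the test. Cdca3, a trigger of mitotic entry that directs the destruction of Wee1, had 173, 186 and 151 CPM in ISC- and TA-like cells. The counting intervals of both cKO libraries (168 to 179 and 180 to 192) lay above that of WT (146 to 157). Its fitted log2 difference was 0.25 (95% interval -0.04 to 0.55, adjusted p = 0.914 by edgeR), and 0.32 in TA-like cells (unadjusted p = 0.0476, adjusted p = 0.754 by edgeR).

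Cdc20, the activator of the anaphase-promoting complex, had 109, 117 and 98.6 CPM, and the fitted difference was 0.20 (-0.09 to 0.50). Ube2c had 394, 444 and 382 CPM, with Arid3a cKO 1 close to WT and Arid3a cKO 2 above both. Cdc25c, the phosphatase that activates Cdk1, was sparse, at 10.4, 10.0 and 8.76 CPM with overlapping counting intervals. Cyclin A2 (Ccna2), which the study names among its proliferation genes, had 81.9, 90.4 and 81.6 CPM, and Arid3a cKO 1 and WT were practically equal. Its fitted difference was 0.08 (-0.22 to 0.38). Cdk1 had 134, 147 and 132 CPM, and the B cyclins Ccnb1 and Ccnb2 had fitted differences of 0.05 and 0.02. The study reports lower expression of Mki67, Pcna and Ccna2 in crypt cell populations of the mutant, most marked in proliferative TA cells. In the TA-like cells defined here, Ccna2 had 153, 150 and 138 CPM, with both cKO libraries above WT. Its fitted difference there was 0.12 (-0.19 to 0.44). Mki67 had 448, 379 and 454 CPM in those cells. Arid3a cKO 1 was within counting error of WT, whereas Arid3a cKO 2 (367 to 391) lay below WT (441 to 467). The study's proliferative TA cells came from its own subclustering, which was not reproduced here. It also reports fewer EdU-positive cells per crypt, more crypt cells in G1 and lower proliferation markers in bulk RNA-seq.

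The small Cdk-binding subunits Cks1b and Cks2, whose proteins are alike, lay on opposite sides of WT. Cks1b had 83.03, 82.7 and 72.4 CPM, with both cKO counting intervals (79.3 to 86.9 and 78.6 to 86.9) above that of WT (68.8 to 76.1). Cks2 had 306, 330 and 334 CPM, so that only Arid3a cKO 1 was clearly below WT. The fitted differences, 0.20 (-0.10 to 0.49) and -0.06 (-0.36 to 0.23), overlapped widely, and the difference between these genes was not tested. The near-identical copy Cks1brt had 9, 4 and 8 UMIs in all kept cells. Whether reads matching both genes were left out of the Cks1b counts was not tested.

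Kinetochore and centromere genes split evenly, with 4 of 11 members above WT in both cKO libraries in ISC- and TA-like cells, 4 below and a median of -0.03. Those were 36.4% each, against 32.8% and 34.5% of all genes tested. Birc5 (survivin, of the chromosomal passenger complex) had 243, 270 and 227 CPM, and both cKO counting intervals lay above that of WT. Its fitted difference of 0.18 (-0.12 to 0.48) included 0. Cenpa had 134, 139 and 123 CPM, again with WT lowest. The outer kinetochore protein Cenpf had 141, 130 and 146 CPM, and WT was highest. Cenpe, the kinetochore motor, shows how far apart replicates of 1 genotype could be: at 92.5, 71.1 and 84.5 CPM, WT lay between cKO libraries that differed more from each other than from it.

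Hjurp lay below WT in both cKO libraries in ISC-, TA-, enterocyte-, goblet- and tuft-like cells and in the unnamed cluster. The counting intervals overlapped that of WT for both cKO libraries in goblet- and tuft-like cells and for Arid3a cKO 1 in TA-like cells. In Paneth-like cells Arid3a cKO 1 was above WT (13.1 against 11.3 CPM), and in enteroendocrine-like cells Arid3a cKO 2 was (136 against 124 CPM), with overlapping intervals. It had 103.5, 94.96 and 118 CPM in ISC- and TA-like cells, and the WT counting interval (113 to 122) lay above those of Arid3a cKO 1 (99.3 to 108) and Arid3a cKO 2 (90.6 to 99.4). The fitted difference there was -0.24 (-0.53 to 0.05). Over all kept cells it was -0.34 with an unadjusted p of 0.00497 and an adjusted p of 0.204 by edgeR, the lowest adjusted p of any member there. Ttk (Mps1), a kinase of the spindle checkpoint, also lay below WT in both cKO libraries, at 14.6, 17.1 and 19.2 CPM.

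Because Hjurp was also present in enterocyte-like cells, a fit in those cells was added after these levels had been seen. Only 31 of the 50 members had enough UMIs there to be tested. Hjurp passed the test with a fitted log2 difference of -0.57 (-0.77 to -0.37, adjusted p = 0.000707 by edgeR), in cells where 2.87% of all genes tested passed. Its level was 41.6, 41.3 and 61.2 CPM, and the cKO libraries, with counting intervals of 39.2 to 44.1 and 38.6 to 44.1, were alike and lay below WT (58.0 to 64.5). The chromatin protein Hmgb2 was the other member to pass, with 67.9, 53.5 and 43.8 CPM and a fitted difference of 0.46 (0.23 to 0.69, adjusted p = 0.0236 by edgeR), both cKO libraries lying above WT. With DESeq2 neither passed (adjusted p = 0.127 for Hjurp and 0.728 for Hmgb2). Hmgb2 also did not pass without the highest doublet scores (adjusted p = 0.0622 by edgeR) or with the members kept in the clustering (adjusted p = 0.195 by edgeR), whereas Hjurp did. At an unadjusted p under 0.05 there were 4 of the 31 members (12.9%, beside 14.5% of all genes tested), the others being Cenpa and Prc1, both below 5 CPM on average.

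Among the same enterocyte-like cells, 12 immune marker genes summed to 4.37, 35.5 and 58.3 CPM, and their part in these differences was not tested. In ISC- and TA-like cells the immune markers had 5, 6 and 8 UMIs in all. In mature enterocyte-like clusters, which hold nearly all of these cells, Hjurp was at 41.0, 41.0 and 61.5 CPM and Hmgb2 at 68.9, 54.3 and 44.2 CPM.

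Spindle genes had a median of -0.0032 in ISC- and TA-like cells. In both cKO libraries 3 of 14 (21.4%, against 32.8% of all genes tested) were above WT and 4 (28.6%, against 34.5%) below. Tubb4b had 723, 793 and 649 CPM, and neither cKO counting interval reached that of WT. The fitted difference was 0.23 (-0.07 to 0.53), and in all kept cells 0.21 (unadjusted p = 0.0491, adjusted p = 0.452 by edgeR). Its annotated pseudogene copies had at most 4 UMIs in a library. Nusap1 had 83.1, 90.7 and 90.1 CPM, and Hmmr, a spindle-assembly factor, had 67.6, 72.2 and 69.0 CPM. In both genes the cKO libraries lay further from each other than the nearer one lay from WT. Tpx2, which activates the kinase Aurka on the spindle, was practically equal in the 3 libraries, at 61.6, 62.3 and 61.7 CPM.

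The 5 members lowest in cKO relative to WT in ISC- and TA-like cells were Gtse1, Hjurp, Top2a, Psrc1 and Mki67, of which Gtse1 and Psrc1 are spindle genes and were sparse. Gtse1, a microtubule-binding protein of G2 and S phase, had 6.82, 6.82 and 9.33 CPM in ISC- and TA-like cells, with overlapping counting intervals (5.78 to 8.01, 5.70 to 8.10 and 8.07 to 10.7). Its fitted difference was -0.45 (-0.88 to -0.02, unadjusted p = 0.0412, adjusted p = 0.751 by edgeR). In all kept cells Gtse1 had 2.59, 2.49 and 3.86 CPM, with both cKO counting intervals (2.23 to 2.998 and 2.10 to 2.93) below that of WT (3.39 to 4.38), and the fitted difference was -0.56 (unadjusted p = 0.014, adjusted p = 0.311 by edgeR). Psrc1, a microtubule-associated protein, had 8.37, 7.14 and 9.91 CPM and a fitted difference of -0.35 (-0.77 to 0.07).

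Of the 6 cytokinesis genes, 5 (83.3%, against 34.5% of all genes tested) were below WT in both cKO libraries and 1 (Gas2l3) above. Their median was -0.06, and none passed the test. Prc1, which bundles the microtubules of the central spindle, had 105, 106 and 108 CPM. Kif23, the motor subunit of centralspindlin, had 77.1, 82.0 and 82.4 CPM. Kif20b, a motor needed for abscission, had 62.1, 58.1 and 67.7 CPM, the widest gap of these genes, and a fitted difference of -0.17 (-0.47 to 0.13). Ect2, the exchange factor that starts furrowing, and Anln (anillin), its scaffold, had fitted differences of -0.14 and -0.09.

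Among the chromatin and nuclear envelope genes, 5 of 9 (55.6%, against 34.5% of all genes tested) were below WT in both cKO libraries and 1 above. Their median was -0.02. Top2a had 274, 288 and 325 CPM, and the WT counting interval (318 to 333) lay above both others (267 to 281 and 280 to 295). The fitted difference was -0.21 (-0.50 to 0.08, adjusted p = 0.959 by edgeR). Mki67 had 250, 233 and 277 CPM, again with WT highest beyond counting error, and a fitted difference of -0.20 (-0.48 to 0.09, adjusted p = 0.963 by edgeR). In all kept cells Mki67 had a fitted difference of -0.21 (unadjusted p = 0.0418, adjusted p = 0.432 by edgeR). Hmgb2, the member with the most UMIs, had 1121, 1320 and 1237 CPM, with WT between the cKO libraries. The condensin subunit Smc4 had 229, 222 and 213 CPM, and the nuclear envelope proteins Tmpo and Lbr had fitted differences of -0.04 and -0.01.

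Taken over ISC-like cells alone, the gaps of Top2a and Mki67 were wider. A fit in those cells was added after the levels by class had been seen, and no member passed it with edgeR (0.35% of all genes tested passed) or with DESeq2. At an unadjusted p under 0.05 there were 10 members, all lower in cKO, which is 20% of the members beside 6.48% of all genes tested. The lowest p-values were those of Top2a, Mki67 and Ccnb2. Top2a had 55.6, 70.9 and 90.4 CPM, a fitted difference of -0.51 (-0.84 to -0.18, adjusted p = 0.394 by edgeR), and passed when the cells were clustered without integration (adjusted p = 0.0337 by edgeR). Mki67 had 61.7, 63.7 and 85.5 CPM and a fitted difference of -0.44 (-0.73 to -0.15, adjusted p = 0.394 by edgeR). Ccnb2 had 36.2, 38.0 and 50.5 CPM and a fitted difference of -0.44 (-0.73 to -0.15, adjusted p = 0.426 by edgeR). In each of these genes both cKO counting intervals lay below that of WT, as they did for Cenpf, Hjurp and Hmgb2. No member had both above. Counting intervals leave out the spread between replicates, and the share of all genes with intervals apart is not given here.

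All 9 chromatin and nuclear envelope genes and 9 of 11 kinetochore genes (81.8%) were below WT in both cKO libraries in ISC-like cells. Of all genes tested there, 35.7% were. The other genes of the programme lay to the same side. In both cKO libraries 32 of the 51 other G2 and mitosis genes (62.7%) and 29 of the 43 S phase genes (67.4%) were below WT. Their medians were -0.12 and -0.14. Counts of the members were much lower here than in TA-like cells, with as few as 2 UMIs (Gtse1 in Arid3a cKO 1), and the fitted intervals of 38 members lay within 1.

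In TA-like cells alone, Mki67 had 448, 379 and 454 CPM, so that Arid3a cKO 1 was within counting error of WT and Arid3a cKO 2 was below it. Top2a had 504, 474 and 542 CPM, with WT still highest. Birc5 had 450, 454 and 383 CPM and Cdc20 200.4, 200.3 and 169.9 CPM, with both cKO libraries above WT. Of the 10 cyclin, Cdk1 and partner genes, 9 (90%, against 34.4% of all genes tested) were above WT in both cKO libraries and 1 (Cks2) below. Their median was 0.15, and none passed the test.

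Outside the 50 genes, 51 other genes of G2 and mitosis had a median log2 ratio of -0.0036 in ISC- and TA-like cells. In both cKO libraries 12 (23.5%, against 32.8% of all genes tested) were above WT and 18 (35.3%, against 34.5%) below. None passed the test with edgeR or DESeq2 there, in TA-like cells or in all kept cells, and 2 had an unadjusted p under 0.05 in each. Those were Cdkn3, a phosphatase of Cdk1 and Cdk2, at 50.8, 51.7 and 39.1 CPM (fitted 0.39, adjusted p = 0.603 by edgeR), and Sgo1, which protects centromeric cohesion, at 26.4, 30.2 and 37.4 CPM (listed in the matrices as Sgol1; fitted -0.40, adjusted p = 0.570 by edgeR). They lay on opposite sides of WT. The 43 S phase genes had a median of -0.12, with 27 below WT in both cKO libraries (62.8%, against 34.5% of all genes tested) and 5 above. None of them passed the test with edgeR or DESeq2, and 2 had an unadjusted p under 0.05 (Hells at -0.34 and Ccne2 at -0.39). All kept cells gave the same count of 27 below WT (against 43.9% of all genes there), and TA-like cells gave 22 (51.2%, against 32.1%).

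Of 15 genes for regulators of the programme (Foxm1, Mybl2, MuvB and E2f subunits and NF-Y), none passed the test with edgeR or DESeq2 in ISC- and TA-like cells, TA-like cells or all kept cells, and 1, 1 and 2 had an unadjusted p under 0.05. Foxm1 had 14.97, 14.4 and 16.7 CPM in ISC- and TA-like cells, and Mybl2 had 12.8, 12.4 and 14.7 CPM, both with overlapping counting intervals. Nfya, the NF-Y subunit that contacts the CCAAT box, had 16.9, 12.9 and 23.6 CPM, and both cKO counting intervals lay below that of WT. The fitted difference was -0.66 (-1.004 to -0.31, unadjusted p = 0.000829, adjusted p = 0.121 by edgeR). It was -0.61 in all kept cells (adjusted p = 0.0802 by edgeR) and -0.88 in enterocyte-like cells, where its level was 5.74, 5.86 and 10.6 CPM and it passed the test with edgeR (adjusted p = 0.00224) but not with DESeq2 (adjusted p = 0.612). The other NF-Y subunits, Nfyb and Nfyc, had fitted differences of -0.05 and -0.07 in ISC- and TA-like cells. In ISC- and TA-like cells, 11 of the 35 members with a CCAAT box in a promoter were above WT in both cKO libraries. Another 15 were below, and the median over the 35 was -0.02. For all 50 members the counts were 17 and 19, with a median of -0.01. The 50 include these 35, and promoter sequence was matched to only 43. These values therefore cannot set members with the box against members without it, and whether members follow Nfya was not tested.

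A summed level can change through the number of cells high in the members or through the level in each of them. A share of such cells and a level inside them were therefore measured. Every ISC- and TA-like cell was thinned to 24000 UMIs, which left out 142, 51 and 123 shallower cells. A cell was counted as member-high when at least 0.5% of its UMIs were in the 50 genes, which is a range of a continuous measure and not a cell type. The level inside member-high cells is bounded by that same threshold, so it is not a separate measure of level per dividing cell. Nor is their share a count of dividing cells, since S phase genes were higher in the other cells. At 0.5% of UMIs, Arid3a cKO 1 had 219 member-high cells of 457 (47.9%, 43.3 to 52.6%). Arid3a cKO 2 had 198 of 391 (50.6%, 45.6 to 55.7%), and WT had 223 of 435 (51.3%, 46.5 to 56.1%). The intervals overlapped, and the difference of the mean of the cKO libraries from WT was -1.98 points. That value depended on the library and on the threshold: it was -3.34 points for Arid3a cKO 1 and -0.625 for Arid3a cKO 2, and for their mean -6.06 points at a threshold of 0.25% of UMIs, with both cKO libraries below WT, and 0.262 points at 1%. Between 0.4% and 0.6%, close to the threshold, lay 31, 41 and 39 cells. With no thinning the shares were 39.9%, 47.1% and 44.6%.

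**Figure D3:**
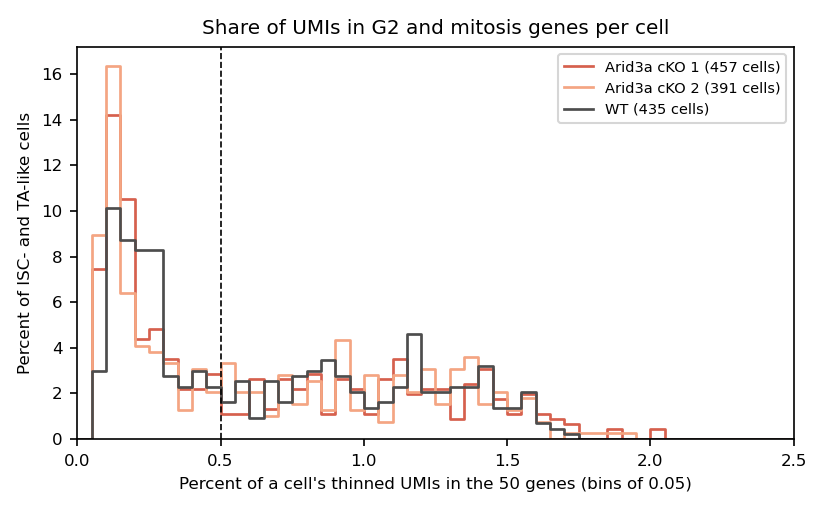
Distribution over ISC- and TA-like cells of the percent of a cell's thinned UMIs in the 50 genes (bins of 0.05), as percent of cells per library, with the 0.5% threshold dashed. All 3 libraries have a peak at low values and a broad hump around 1%, reaching 2.03% at most, and fewer WT cells lie in the lowest filled bin, 0.05 to 0.1% (2.99%, against 7.44% and 8.95% in the cKO libraries).

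Inside member-high cells the level was 110.9, 106.9 and 106.7 member UMIs per 10000, a log2 difference of 0.029 between the mean of the cKO libraries and WT. In the other cells it was 20.7, 19.5 and 23.1 per 10000, with WT highest. Member-high cells were 94.5%, 95.9% and 93.0% of TA-like cells and 5.04%, 6.57% and 5.77% of ISC-like cells. After thinning to 21000 UMIs there was no member-high cell among 738, 524 and 618 enterocyte-like cells, which by the limit of 3 counts that a count of 0 allows is a share of up to 0.407%, 0.573% and 0.485%. Goblet-like cells had 17.1%, 18.6% and 15.3%. The deeper cells were more often member-high: before thinning, member-high cells had a median of 42982, 48696 and 39923 UMIs and the other cells 32281, 35959 and 31580. The part of a cell's depth in this was not tested. S phase genes were at 23.1, 24.8 and 24.8 UMIs per 10000 in member-high cells and at 27.8, 27.6 and 32.8 in the others.

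Across single cells the members varied together. Over 457, 391 and 435 thinned ISC- and TA-like cells, 1224 of the 1225 pairs of members had a positive Pearson correlation of their log levels in all 3 libraries. The correlation with the sum of the other 49 members was lowest for Psrc1 (0.21 to 0.29) and highest for Birc5 (0.90 to 0.93) and Hmgb2 (0.90 to 0.92). It was at least 0.5 in all libraries for 39 members and at least 0.7 for 21. The closest pair was Birc5 with Hmgb2 (0.86 to 0.90), followed by Ube2c with Birc5 and Ube2c with Nusap1. Cells of a library share its preparation, and Psrc1, with the lowest correlation, was also among the members with the fewest UMIs.

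The members differed in how they followed DNA replication. The correlation with the sum of 43 S phase genes was negative in all libraries for 33 members, positive in all for 4 and of mixed sign for 13. By its highest value over the libraries it was most negative for Ccnb2 (-0.55 to -0.50), followed by Cenpa (-0.59 to -0.45), Cdc20 (-0.53 to -0.45) and Ccnb1 (-0.52 to -0.37), which act at or after mitotic entry. The 4 positive members were Top2a (0.10 to 0.26), Tmpo (0.15 to 0.26), Hjurp (0.14 to 0.20) and Lbr (0.04 to 0.09). Mki67 lay near 0 (-0.06 to 0.11), as did Cdk1 (-0.08 to 0.07).

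**Figure D4:**
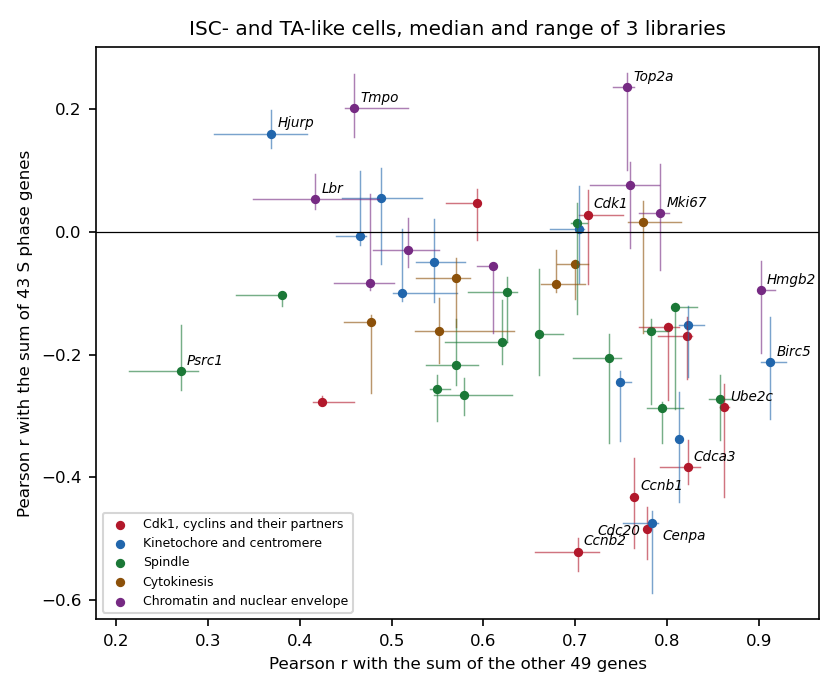
Pearson r of each gene's log level with the sum of the other 49 genes (horizontal) and with the sum of 43 S phase genes (vertical), over ISC- and TA-like cells; points are the median and lines the range of 3 libraries. Ccnb2, Cenpa, Cdc20 and Ccnb1 lie lowest on the vertical axis and Top2a, Tmpo and Hjurp highest.

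Among 9216 genes seen in at least 10% of these cells in every library, 41 of the 50 members were in the 100 genes most correlated with the summed members. Here the sum held each member's own UMIs, which raises the ranks of members. That count therefore does not compare members with other genes on equal terms. The 10 genes outside the list that followed it most closely were Ube2s, Plk1, Racgap1, H2afx, Kif22, Arl6ip1, Pbk, H2afz, Knl1 and Tuba1c. The lowest of their 3 correlations ran from 0.68 (Tuba1c) to 0.78 (Ube2s). At the other end stood Gas5 (-0.58 to -0.44), a noncoding RNA, with the S phase genes Ung (-0.57 to -0.43) and Mcm6 (-0.53 to -0.43).

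The differences were also set against transcript length. The fitted difference of the 50 members in ISC- and TA-like cells and the log length of their longest annotated transcript (692 to 11130 bases) had a Pearson correlation of -0.31 and a Spearman correlation of -0.42. Over 8349 genes in the same range of CPM these were -0.12 and -0.24. These are correlations across genes, which are not independent replicates. The 25 shorter members had a median difference of 0.05 with 15 above 0, and the 25 longer members -0.04 with 9 above 0. Roles were not spread evenly over length: Cks1b and Cks2 are among the shortest, whereas Mki67 and Cenpf are among the longest. Whether length had a part in the differences by role was not tested.

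**Figure D5:**
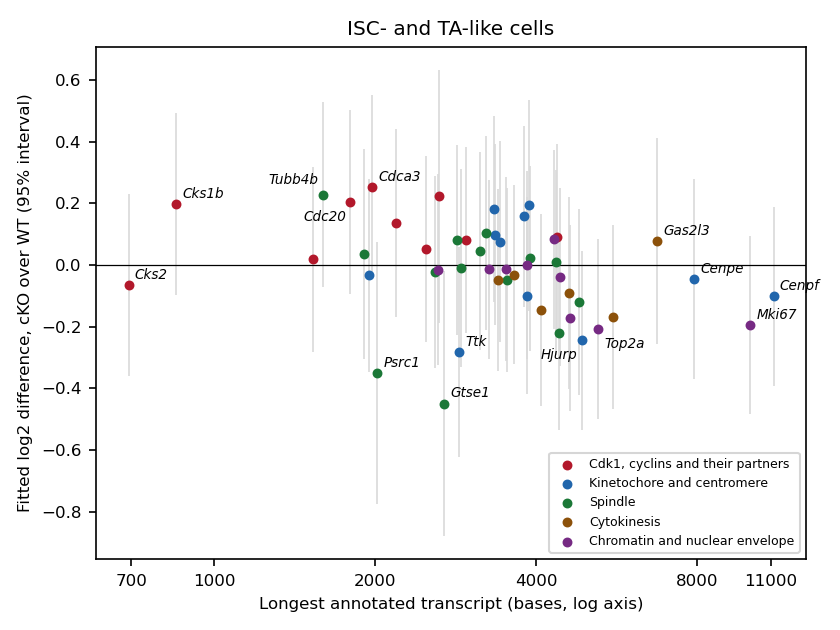
Fitted log2 difference of cKO over WT in ISC- and TA-like cells (edgeR, grey lines 95% intervals) against the longest annotated transcript in bases (log axis), for 50 genes coloured by role. Short genes such as Cks1b, Tubb4b and Cdca3 lie above 0, and long genes such as Mki67 and Cenpf lie below 0, though Cks2, the shortest, also lies below.

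All 50 members are protein-coding genes of the GENCODE M21 annotation of GRCm38, on 17 chromosomes, and 12 overlap another gene on the same strand. For those, reads in the shared part could be left out or assigned to either gene. The genome build used for counting is not given for the mouse libraries in the sources used here, and the labels name human builds.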

How the data were processed

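The deposited matrices hold unscaled UMI counts for each gene and barcode, which the authors made with CellRanger (5.0.0 in the file headers). From these, cells were selected by the study's limits, and UMIs were summed per library and class and divided by the class total to give CPM. No table held columns of other samples. Cells were integrated and clustered in Seurat 5.3.0 (R 4.3.3; 3000 integration features, 2000 for principal components, 30 components) without the 50 members. Clusters were named from marker lists by a scoring rule set after the clusters had been seen. Doublets were kept. Scanpy 1.11.5 marked 1.41 to 2.41% of kept cells as doublets, and leaving out the 5% highest scores was an alternative. Correlations used log values of thinned counts.

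Summed counts were tested two-sided with edgeR 4.0.16 (quasi-likelihood, TMM scaling, filterByExpr, Benjamini-Hochberg adjustment, called under 0.05), and DESeq2 1.42.0 was an alternative. On simulated counts with 200 genes changed 4-fold, edgeR recovered 200, 200 and 199 of them for all kept, ISC- and TA-like and TA-like cells (16304, 13851 and 12516 genes), with 6, 9 and 10 unchanged genes called. For ISC-like (12548 genes) and enterocyte-like cells (12387 genes) it recovered 200 each, with 12 unchanged genes called. The simulation gave every gene the same set spread and changed only genes with higher counts. Its 4-fold change was larger than any fitted difference of a member, so it does not show how well smaller ones would be found.

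The members and lists were chosen with earlier results of these data known. Values per library were given for the 3 members with the highest mean CPM in each role, the 5 highest and the 5 lowest in cKO by the smaller of both log2 ratios, called members, Mki67, Ccna2, Cks1b and Cks2. Other members named (among them Cdk1, Cenpe, Ttk, Tpx2 and Smc4) were chosen after their values were seen.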

Additional observations from a re-analysis of the deposited data

How the results depend on the processing

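No paired analysis was possible because cKO and WT share only 1 replicate number. Leaving out a cKO library leaves 1 library in each group and no residual degree of freedom, so it gives values with no test. The median log2 ratio of the members then ran from -0.105 to -0.0088 in all kept cells, -0.030 (without Arid3a cKO 2) to 0.016 (without Arid3a cKO 1) in ISC- and TA-like cells and 0.0018 to 0.078 in TA-like cells. The share of member-high cells differed from WT by -3.34 to -0.625 points and the level inside them by 0.0021 to 0.056 on the log2 scale. The 0 members called in all kept, ISC- and TA-like and TA-like cells stayed 0 under every scaling, filter, tool, doublet and clustering alternative run. The member median changed sign, to 0.0091 in ISC- and TA-like cells without the highest doublet scores, to 0.022 in all kept cells with at least 500 genes and at most 25% mitochondrial UMIs, and in TA-like cells to -0.014 without integration and -0.013 with the members kept in the clustering, where all ISC- and TA-like cells took the TA name. In ISC- and TA-like cells it was -0.053 as a mean over cells. Counting cells as member-high at 0.25% of UMIs gave a difference of -6.06 points and a level of 0.078, and at 1% a difference of 0.262 points. Without thinning the level was 0.068. The cause of these shifts was not tested. In the added ISC-like fit, 1 member (Top2a) was called without integration and 0 under the other settings run, and the median ran from -0.18 to -0.13, with 34 or 35 members below WT in both cKO libraries. No ISC-like class was left with the members kept in the clustering. In the added enterocyte-like fit, 3 members were called with no filter or no integration, 1 (Hjurp, not Hmgb2) without the highest doublet scores or with members kept in the clustering, and 0 by DESeq2. The difference of Hjurp stayed between -0.58 and -0.56 and that of Hmgb2 between 0.456 and 0.472. The number of all genes called moved by over 1.5 times from 116 in all kept cells (RLE 60, no filter 677, doublets removed 276), from 62 in ISC- and TA-like cells (no filter 196, DESeq2 40, doublets removed 195, resolution 0.8 223, no integration 225, members kept 114), from 136 in TA-like cells (DESeq2 27) and from 364 in enterocyte-like cells (no filter 554, DESeq2 89, members kept 111).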

Other observations

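In the classes with few cells the summed members differed between libraries. Paneth-like cells (34, 17 and 29 cells in Arid3a cKO 1, Arid3a cKO 2 and WT) held 817, 105 and 553 CPM of member UMIs. Tuft-like cells (38, 20 and 41 cells) held 1397, 1451 and 2624 CPM, and after thinning 3 of 6 WT tuft-like cells were member-high against 0 of 4 and 0 of 5 in the cKO libraries. Enteroendocrine-like cells (47, 43 and 87 cells) held 1646, 1410 and 912 CPM. With 1 WT library these values were not tested.

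For each member, the lowest of its 3 library correlations with the sum of the other members was taken. The median of these values was 0.656 for the 21 members whose promoter held TTTGAA or TTCGAA. It was 0.689 for the 22 whose promoter did not.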
